A study of Equus caballus with 12 samples.

Results

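The genes described here were the horse genes for which the tables of the study printed an Ensembl identifier next to a gene symbol. Of the 31217 genes in the count files, 3764 were named in this way. Only the pairing of symbol and identifier was taken from those tables, and every level and difference below was computed from the read counts. The members were not a neutral draw: most had been selected on differences in read counts between organs in these same libraries. In all, 2525 members stood in lists of differentially expressed genes (DEGs), of which 1621 were listed as higher in heart than in lung, 1271 as higher in liver than in lung, and 367 in both lists. A table of differentially methylated DNA sites held 1125 members, here called methylation-table genes, and it was made without the read counts. Lists that combined methylation and expression held 792 members, and 293 members came from nowhere else. The longest tables were at hand in shortened form. The DEG lists at hand held only genes higher in heart or in liver than in lung, and none from the comparison of heart with liver. A gene said below to stand in neither DEG list, or in no list, may thus stand in the full lists of the study. The members were rich in heart and liver genes and poor in lung genes. Levels of members from the DEG lists and from the lists that combined methylation and expression are therefore given as a description, without p-values.

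RNA came from the left ventricle of the heart, the caudal lobe of the right lung and the right lobe of the liver of 4 healthy, untreated young stallions of cold-blooded type. There was 1 library per organ and animal, so the 12 libraries formed 3 groups of 4, and replicates 1 to 4 are horses 1 to 4 in every group. Each library held 1 piece of whole tissue with all its cell types, all animals were male, and fewer cells of a type cannot be told apart from less RNA per cell. Reads counted in genes ranged from 4345694 to 23474239 per library. Levels are given as CPM, the reads of a gene per 1000000 reads counted in genes, with library sizes adjusted by edgeR's TMM factors, as mean ± SD over 4 libraries unless each library is named. A log2 fold change, given with its standard error (SE), is lung over heart in LvsH, lung over liver in LvsLR and heart over liver in HvsLR. The SE is approximate: the absolute log2 fold change over the square root of the F statistic of edgeR's quasi-likelihood test. The summed level of 6 cardiomyocyte markers was between 35573 and 61608 CPM in heart and at most 18.1 CPM elsewhere. The summed level of 7 hepatocyte markers was between 146335 and 227938 CPM in liver and between 34.3 and 96.1 CPM in lung. Heart replicate 2 held 4993 CPM of these markers, against 94.1, 379.5 and 175 CPM in heart replicates 1, 3 and 4, and results that rest on this library are given with and without it.

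As background, a heart muscle cell contracts when calcium released from its internal store binds the troponin complex on thin filaments and lets myosin heads of the thick filaments pull. It pays for this with ATP from mitochondria that burn mostly fatty acids. A hepatocyte secretes most proteins of blood plasma, turns ammonia into urea, makes bile acids and releases glucose, whereas the lung is lined by ciliated and secretory epithelium over a dense bed of capillaries with resident macrophages. Many enzymes exist as separate genes for muscle and liver, and several such pairs are among the members.

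For 4 members the primers of a quantitative PCR assay were given, and they are shown because they mark the transcripts of the genes that open the description. Each is written 5′ to 3′ in lower case, with no part marked.
A1BG forward: accagttcccactaggagca
A1BG reverse: atccaggacacaggctcagt
ERRFI1 forward: gacccaataaccatggcctac
ERRFI1 reverse: aataatcagagggggcaagc
TSPAN8 forward: gtgtgtgccgtgacaatca
TSPAN8 reverse: gcaggagcggatgtagttgt
PNN forward: gcgtggattctcagatagtgg
PNN reverse: ttttaacatcatcgtcctctgg

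A1BG, a glycoprotein of blood plasma, was counted at 4197, 3499, 7550.4 and 4463 CPM in liver replicates 1 to 4. Heart gave 9.76, 180.3, 22.3 and 9.32 CPM and lung 5.37, 2.34, 8.25 and 4.29 CPM in the same order. All liver libraries lay above all others, and heart replicate 2 was the highest of the rest. ERRFI1, a feedback inhibitor of the epidermal growth factor receptor, stood at 312, 135, 175 and 219 CPM in liver, at 47.0, 49.2, 45.3 and 28.1 CPM in lung and at 7.04, 13.4, 7.26 and 7.95 CPM in heart. The 3 groups did not overlap and fell in the order liver, lung and heart. TSPAN8, a membrane protein of the tetraspanin family found in epithelia, reached 234, 207, 196 and 191 CPM in lung. The other organs stayed near the bottom of the scale for this gene, with 4.52, 3.01, 5.03 and 3.33 CPM in heart and 6.50, 8.84, 11.3 and 1.37 CPM in liver. PNN, a nuclear protein of splicing bodies and cell junctions, had means of 72.5 ± 16.0 CPM in heart, 61.3 ± 14.6 CPM in lung and 43.3 ± 10.5 CPM in liver (SD, n = 4 each). Its lung libraries overlapped those of both other organs, and edgeR's quasi-likelihood test called it in no contrast. Its absolute log2 fold change stayed below 1, with an adjusted p of 0.379 in LvsH, 0.0702 in LvsLR and 0.0129 in HvsLR. ERRFI1 and PNN stood in the methylation table and in neither DEG list at hand. The paper, however, treated all 4 genes as DEGs and measured them by qPCR in the same samples, so the p-values of PNN are a description only. For ERRFI1 the log2 fold change was 2.24 ± 0.30 (SE) in LvsH, -2.31 ± 0.29 in LvsLR and -4.55 ± 0.33 in HvsLR. ERRFI1 also stood in a list that combined methylation and expression, so no p-value is given for it.

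**Figure D1:**
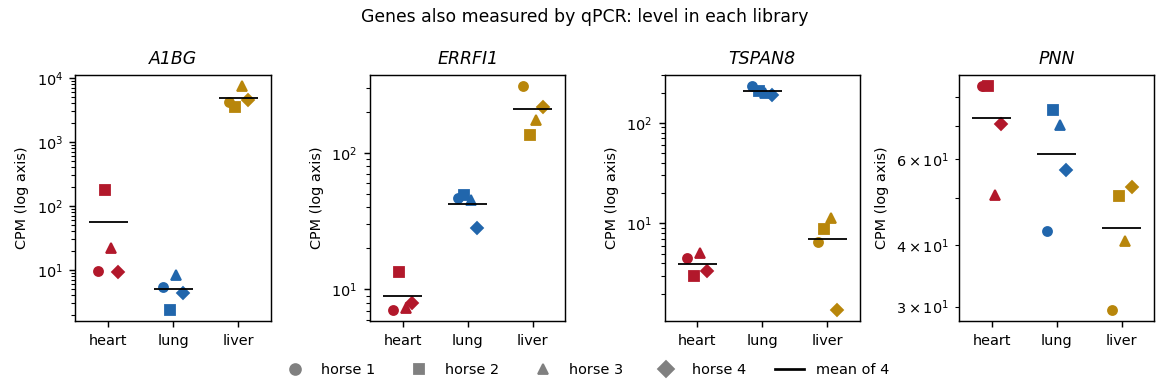
Level of A1BG, ERRFI1, TSPAN8 and PNN in CPM on a log axis, in heart, lung and liver. Each symbol is 1 library, its shape gives the horse, and the line is the mean of 4. A1BG was highest in the 4 liver libraries, with heart replicate 2 at 180.3 CPM far above the other hearts, TSPAN8 was highest in the 4 lung libraries, and PNN spread between 29.5 and 84.5 CPM over all 12 libraries.

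A few members took a large share of all reads counted in genes. In heart, MT-CO1, the catalytic subunit of cytochrome c oxidase encoded in mitochondrial DNA, took 24.4% ± 4.11 of the gene counts (SD, n = 4). It was followed by MT-ATP6, a subunit of the ATP synthase motor, with 6.58% ± 2.62, MT-CO2 with 4.81% ± 0.787, MT-ND1 with 4.12% ± 0.692 and MT-ND2 with 3.84% ± 1.38. In liver, albumin (ALB) took 7.0% ± 1.71, and the fibrinogen chains FGB and FGG took 2.96% ± 0.784 and 2.53% ± 0.639. MT-CO1 took 2.33% ± 0.502 there and AMBP, the precursor of alpha-1-microglobulin and bikunin, took 1.99% ± 0.374. In lung no member took more than 1.01% ± 0.142, which was again MT-CO1. B2M, the light chain of class I histocompatibility molecules, followed with 0.550% ± 0.0570, EPAS1, the oxygen-sensing transcription factor HIF-2 alpha, with 0.326% ± 0.0838, and MARCO, a scavenger receptor of alveolar macrophages, with 0.261% ± 0.122. All members together took 70.0% to 76.5% of the gene counts in heart libraries, 58.0% to 64.9% in liver libraries and 20.2% to 22.5% in lung libraries. These are shares of reads and depend on transcript length, and CPM values of heart lie above them because its TMM factors were below 1.

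A filter on low counts left 3563 of the members for testing, while 201 fell below it and 20 of those had no count in any library. Of the members tested, the highest mean was in heart for 1595, in liver for 1347 and in lung for 621. A gene was called when its adjusted p was below 0.05 in edgeR's quasi-likelihood test and its absolute log2 fold change was at least 1. In LvsH, 2475 members were called, 551 higher in lung and 1924 higher in heart. Over all 15436 genes tested, 45.2% were called, 24.5% higher in lung and 20.7% higher in heart. In LvsLR, 795 members were higher in lung and 1592 higher in liver, against 31.1% and 19.4% of all genes. In HvsLR, 1311 members were higher in heart and 1130 higher in liver, against 26.4% and 22.0% of all genes. The 4 libraries of each organ did not overlap for 57.4% of all genes in LvsH, 62.5% in LvsLR and 54.9% in HvsLR. All 4 heart libraries lay above the 8 others for 15.6% of all genes, all 4 liver libraries above the others for 15.8% and all 4 lung libraries below the others for 12.3%, and counts of that kind below stand beside these shares. The DEG lists used LvsH and LvsLR, and the lists that combined methylation and expression also used HvsLR, so nothing is read from the excess of the members in any contrast.

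Scaling mattered for the direction of these counts. With plain library totals in place of TMM factors, the median log2 fold change over all genes tested moved from 0.030 to 1.85 in LvsH and from 0.26 to 1.81 in LvsLR, while in HvsLR it moved from 0.12 to -0.13. With totals alone, 1459 members were called higher in lung and 681 higher in heart in LvsH, and 1584 higher in lung and 773 higher in liver in LvsLR. Over all 15436 genes, 11259 were called higher in lung and 879 in heart in LvsH, and 10782 in lung and 1151 in liver in LvsLR. The TMM factors were 2.10 to 2.24 in lung, 0.583 to 0.652 in heart and 0.680 to 0.843 in liver. Differences of lung from the other organs below are relative to TMM scaling.

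The contractile machinery was read almost only in heart. The list of DEGs higher in heart than in lung held all 10 members of the thick filament and 11 of 12 of the thin filament. In the lists below it held all 22 genes of the Z-disc, 18 of 19 of calcium handling and 17 of 18 of the membrane. Heart above lung was thus set by selection for nearly all of them, and nothing is read from the excess of such counts. MYH7, the slow myosin heavy chain that drives the ventricle of large mammals, stood at 17627, 11382, 14535 and 18578 CPM in heart replicates 1 to 4. Lung gave 4.95, 1.07, 1.44 and 2.18 CPM and liver 5.60, 3.36, 4.63 and 6.83 CPM. MYBPC3, the myosin-binding protein that regulates cross-bridges, stood at 3499.8, 3012, 4533 and 4522 CPM in heart and at no more than 1.64 CPM in any library of the other organs. All 10 members of the thick filament had every heart library above all 8 others. Their median log2 fold change was 11.07 in HvsLR, between 10.68 and 11.84 when any library was left out, where the median over all genes was 0.12. MYL2 and MYL3, the regulatory and essential light chains of the ventricle, had log2 fold changes in HvsLR of 12.18 ± 0.69 and 11.93 ± 0.58 (SE). MYL7, the regulatory light chain known from the atrium, differed widely between animals, with 758, 36.8, 352 and 97.8 CPM in heart. It gave 2 reads over the 4 lung libraries and 2 over the 4 liver libraries. MYL4, the atrial essential light chain, stayed at 2.72, 1.28, 2.51 and 7.27 CPM in heart. MYOM1, MYOM2 and MYOM3, which link thick filaments at the M-band, averaged 594 ± 136, 177 ± 110.5 and 274 ± 43.2 CPM in heart.

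Thin filament members were as sharply divided. TNNT2, the cardiac troponin T that anchors the troponin complex, stood at 15499, 17968, 21193 and 20329 CPM in heart, at 6.01, 1.50, 2.01 and 2.01 CPM in lung and at 5.70, 4.17, 3.50 and 5.73 CPM in liver. TNNI3, the inhibitory subunit, stood at 6771, 8216, 10333 and 13936 CPM in heart. TNNC1, the subunit that binds calcium, averaged 5913 ± 769.9 CPM there (SD, n = 4). The lowest heart library of each of these genes was above the highest library of the other organs. The actins ACTC1 and ACTA1, named for heart and skeletal muscle, averaged 5155 ± 1759.6 and 7696 ± 2852 CPM in heart, though reads of near copies such as these could be assigned to either. Troponin T of slow skeletal muscle (TNNT1) was uneven between animals, with 123, 346, 121 and 105 CPM in heart, and the replicate 2 value was the highest. TNNT3 of fast skeletal muscle stood at 63.6, 67.8, 27.6 and 43.9 CPM. TPM1, a tropomyosin of heart muscle, was also read in lung at 133 ± 24.7 and in liver at 88.3 ± 21.9 CPM, against 5780.2 ± 958 CPM in heart. The median over the 12 thin filament members was 9.78 in HvsLR. 11 of them had every heart library above all others, and the exception was NEB, the giant ruler protein nebulin, at 0.730, 3.71, 10.3 and 3.33 CPM in heart and 0.638, 0.701, 0.961 and 0.640 CPM in lung.

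The Z-disc, where thin filaments of neighbouring sarcomeres are anchored, was represented by 22 members, and every heart library was above all others for each of them. DES, the intermediate filament desmin, averaged 6567 ± 953 CPM in heart and 43.5 ± 15.7 CPM in lung. TCAP, which caps titin, averaged 4343 ± 714 CPM in heart and 3.27 ± 0.784 CPM in lung. ANKRD1, a titin-binding protein known to respond to stretch, varied between animals, with 1371, 556, 2211 and 2821 CPM in heart, and its relative ANKRD2 stood at 194, 99.7, 675 and 245 CPM. Replicate 2 was the lowest heart library for both. NRAP, an actin-binding protein of forming sarcomeres, was the member of this list with the highest level in liver. It stood at 623, 373, 853 and 876 CPM in heart, 71.6, 101, 58.9 and 58.7 CPM in liver and 0.213, 0.267, 0.0836 and 0.521 CPM in lung, and the 3 groups did not overlap. Other members of the list reached at most 38.0 ± 6.22 CPM in liver, for PDLIM5.

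Among genes of calcium handling, RYR2, the release channel of the internal calcium store, stood at 526, 499.7, 492 and 756 CPM in heart and at 1 CPM or less in all 8 other libraries. PLN (phospholamban), the small inhibitor of the calcium pump, stood at 400.2, 352, 509 and 593 CPM in heart and at most at 2.50 CPM elsewhere. The pump itself, ATP2A2, which all cells use, was less restricted, with means of 1529 ± 313 CPM in heart, 81.5 ± 10.7 CPM in lung and 102 ± 17.6 CPM in liver. CASQ2, which stores calcium, had a log2 fold change of -7.95 ± 0.50 (SE) in LvsH and 12.04 ± 0.61 in HvsLR. CACNA1C, the pore of the L-type channel, averaged 36.7 ± 10.9 CPM in heart and 6.88 ± 0.836 CPM in lung. TECRL, a gene of inherited arrhythmia, averaged 89.8 ± 25.8 CPM in heart and had no count in any liver library, which put heart at least 1166-fold higher when 3 counts over the liver group were taken as the limit. FKBP1B, a partner of the release channel, was the exception on the list, with 3.19, 4.29, 3.91 and 7.12 CPM in heart and 6.20, 1.61, 4.35 and 1.09 CPM in liver, so that these groups overlapped. The median over the 18 tested members was 8.56 in HvsLR.

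Ion channels and other membrane proteins of heart muscle were as clearly marked. KCNE1, a subunit of the slow delayed rectifier, averaged 69.6 ± 12.4 CPM in heart. Its pore-forming partner KCNQ1 averaged 31.2 ± 8.71 CPM in heart and 15.5 ± 7.55 CPM in liver, and these groups overlapped. GJA1, connexin 43 of the gap junctions, averaged 228 ± 37.5 CPM in heart and 75.5 ± 26.9 CPM in lung. POPDC2, POPDC3 and BVES, membrane proteins that bind cyclic AMP, averaged 474 ± 96.9, 48.1 ± 17.6 and 175 ± 40.3 CPM in heart. CACNA1D, an L-type channel pore, was the member of the list with its highest level in lung, at 3.19, 2.04, 1.27 and 3.86 CPM, with 2 reads over the heart libraries and 1 over the liver libraries. Over the list, 15 of 18 members had every heart library above all others, and the median was 7.82 in HvsLR.

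Regulators of the heart were less uniform. NKX2-5, a homeobox factor of heart development, stood at 66.5, 45.3, 104 and 73.5 CPM in heart, with 1 read over the lung libraries and none over the liver libraries. IRX4, a factor of ventricular identity, averaged 12.3 ± 4.30 CPM in heart and had no count elsewhere, which put heart at least 581-fold above lung and at least 159-fold above liver. GATA4 was shared by heart and liver. It stood at 36.5, 29.3, 32.1 and 39.5 CPM in heart and 18.9, 17.9, 20.3 and 24.0 CPM in liver, and gave 3 reads over the 4 lung libraries. ESRRA, a nuclear receptor that drives genes of oxidative metabolism, averaged 123 ± 43.8 CPM in heart, 99.8 ± 14.6 CPM in liver and 22.9 ± 3.38 CPM in lung. CORIN, the protease that activates natriuretic peptides, averaged 19.3 ± 9.66 CPM in heart and 10.6 ± 5.69 CPM in liver, and these groups overlapped. BMP10, a ligand named for its role in the embryonic heart, had no count in heart or lung and stood at 4.80, 6.72, 4.82 and 4.92 CPM in liver, at least 74.3-fold above heart. Of the 15 genes, 9 had every heart library above all others, and in HvsLR 8 of 13 tested were called higher in heart and 1 higher in liver, beside 26.4% and 22.0% of all genes. The list of DEGs higher in heart than in lung held 11 of the 15, so nothing is read from the excess in heart.

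**Figure D2:**
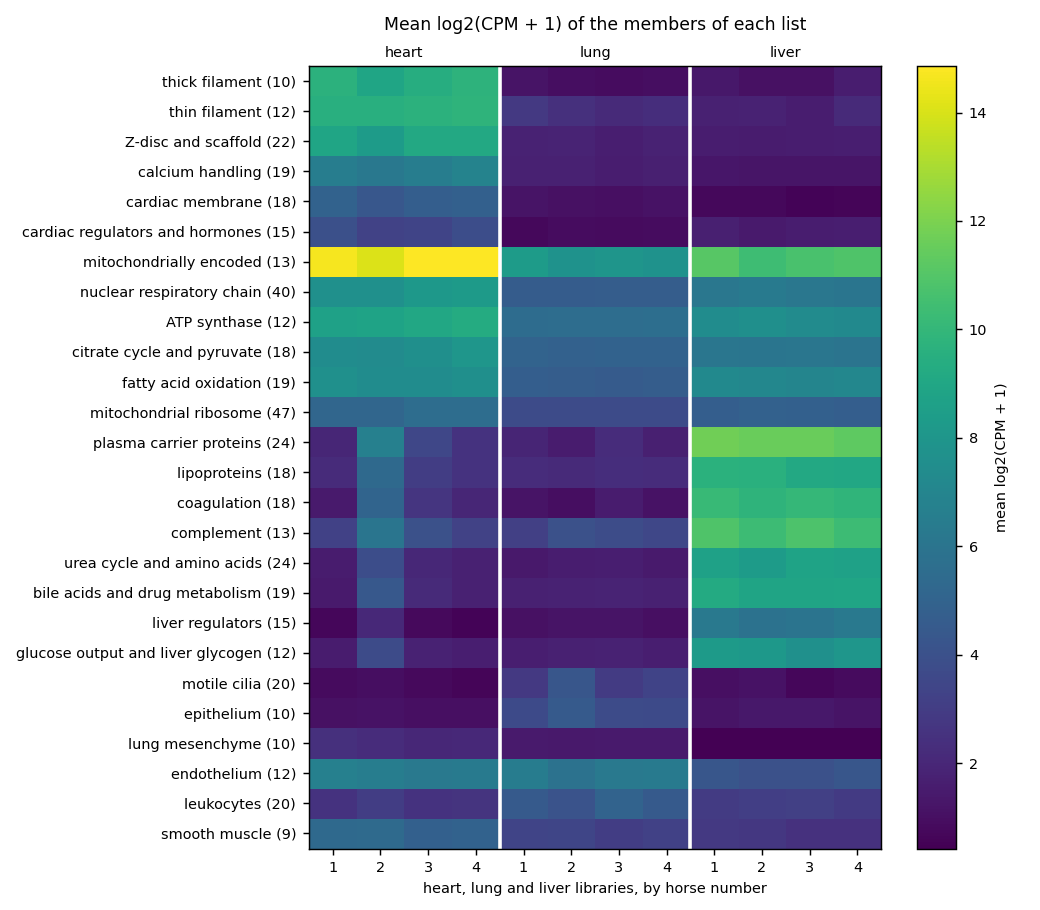
Mean log2(CPM + 1) of the members of 26 functional lists (rows, number of members in brackets) in the 12 libraries (columns, ordered by tissue and horse). Lists of the contractile apparatus are bright in the 4 heart columns only, lists of mitochondrial genes and proteins are lowest in lung under this scaling, lists of plasma proteins are bright in liver and, at a low level, in heart replicate 2, and the list of motile cilia is brightest in lung.

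The genes of mitochondrial DNA and of mitochondrial proteins followed another pattern, with lung at the bottom under TMM scaling. Nearly all of these genes stood in the list of DEGs higher in heart than in lung, so heart above lung was set by selection. It held all 13 genes of mitochondrial DNA, all 40 of the nuclear respiratory chain, all 12 of ATP synthase and all 18 of the citrate cycle. It also held 18 of the 19 genes of fatty acid oxidation. MT-CO1 stood at 372114, 465369, 359173 and 387303 CPM in heart, 31361, 37138, 24404 and 30962 CPM in liver and 4968, 5294, 4671 and 3623 CPM in lung. All 13 protein genes of mitochondrial DNA showed this order without overlap between lung and the other organs, and each had every heart library above all others. Their median log2 fold change was -6.79 in LvsH, -2.81 in LvsLR and 3.93 in HvsLR. The range over the 13 genes was narrow in LvsH, from -6.98 to -6.26. When scaled by totals alone, the medians of LvsH and LvsLR were -4.92 and -1.26, and 9 of the 13 genes kept every lung library below all others. MT-ATP6 split the animals in each organ, with 131608, 65702, 158142 and 74962 CPM in heart, where replicates 1 and 3 were higher than replicates 2 and 4. The same replicates were higher in lung, at 1568, 1081, 1525 and 883 CPM, and in liver, at 10833, 7293, 11401 and 6525 CPM.

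Respiratory chain subunits encoded in the nucleus differed less. All 40 members had their lowest level in lung, with every lung library below all others, and 38 had every heart library above all others. Their median log2 fold change was -3.29 in LvsH, -1.62 in LvsLR and 1.72 in HvsLR. The difference of lung from liver depended on scaling. Under totals alone the median was -0.073 in LvsLR, where 0 genes were called, against 38 called higher in liver under TMM (19.4% of all genes), while in LvsH it was -1.45 and in HvsLR 1.42. CYC1, cytochrome c1 of complex III, stood at 613, 635, 779 and 876 CPM in heart, 139, 182, 148 and 144 CPM in liver and 49.2, 52.4, 61.2 and 60.0 CPM in lung. COX4I1 of complex IV averaged 934 ± 198, 183 ± 34.2 and 80.1 ± 2.06 CPM in the same order. Cytochrome c (CYCS) averaged 754 ± 197, 109 ± 17.2 and 30.8 ± 1.42 CPM. SDHA of complex II averaged 666 ± 173, 255 ± 33.5 and 80.0 ± 4.59 CPM, and UQCRFS1, the iron-sulfur protein of complex III, averaged 587 ± 135, 150.0 ± 17.7 and 43.5 ± 0.563 CPM. The 2 genes for subunit 7A of cytochrome c oxidase parted. The muscle form COX7A1 stood at 391, 430.3, 578 and 645 CPM in heart and 6.10, 31.4, 11 and 8.19 CPM in liver. The common form COX7A2 stood at 51.2, 45.1, 76.8 and 82.8 CPM in heart and 59.2, 77.2, 48.8 and 49.7 CPM in liver, and these groups overlapped. The 12 genes of ATP synthase also had every lung library lowest and every heart library highest, with medians of -3.48 in LvsH and 1.47 in HvsLR. Under totals alone, 6 of them kept every lung library lowest and 11 every heart library highest. ATP5F1B, its catalytic beta subunit, stood at 2718, 2618, 3197 and 3943 CPM in heart, 738, 722, 656 and 655 CPM in liver and 214, 231, 235 and 229.7 CPM in lung.

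In the citrate cycle and pyruvate entry, 15 of 18 members were highest in heart. IDH3A, a subunit of isocitrate dehydrogenase, was lowest in liver rather than lung, with 131, 113, 171 and 222 CPM in heart, 39.0, 27.5, 28.7 and 26.7 CPM in lung and 5.40, 6.72, 7.09 and 4.10 CPM in liver. The other subunits of this enzyme, IDH3B and IDH3G, averaged 57.3 ± 2.49 and 62.3 ± 6.42 CPM in liver and 21.0 ± 2.18 and 21.9 ± 1.13 CPM in lung. The 3 members with their highest mean in liver were FH (fumarase), SUCLG2, the subunit of succinyl-CoA ligase that uses GTP, and MPC1, a part of the mitochondrial pyruvate carrier. FH averaged 336 ± 57.3 CPM in liver and 216 ± 52.9 CPM in heart, and MPC1 averaged 118 ± 49.1 and 57.8 ± 18.6 CPM. SUCLA2, the subunit that uses ATP, averaged 154 ± 40.8 CPM in heart and 37.0 ± 4.70 CPM in liver.

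Genes of fatty acid oxidation were higher in heart than in lung under TMM scaling, and the order of heart and liver varied between them. All 19 members were called higher in heart than in lung, 10 with library totals alone, and in HvsLR 6 were higher in heart and 7 higher in liver. Over all genes the shares under TMM were 20.7% in LvsH and 26.4% and 22.0% in HvsLR. With library totals alone, 879 of all 15436 genes were called higher in heart than in lung. Among those higher in heart were LPL, the lipase that frees fatty acids from lipoproteins, with a log2 fold change of 5.39 ± 0.43 (SE) in HvsLR, CD36, a fatty acid transporter of the membrane, with 1.97 ± 0.24, and FABP3, the carrier of muscle cytosol, with 6.38 ± 0.41. CPT1B, the muscle gatekeeper of mitochondrial entry, stood at 486, 245, 264 and 331 CPM in heart and at most at 8.31 CPM elsewhere. ACADVL, the first dehydrogenase for very long chains, averaged 1278 ± 143 CPM in heart and 362 ± 38.9 CPM in liver. CRAT, which moves acetyl groups onto carnitine, averaged 223 ± 47.1 and 97.3 ± 7.13 CPM. Those higher in liver included ACADM, the dehydrogenase for medium chains, with a log2 fold change in HvsLR of -1.04 ± 0.24, the hydratase ECHS1 with -1.85 ± 0.18 and the thiolase ACAA2 with -1.11 ± 0.30. ACSL1, which activates long chains, stood at 2275, 908, 1152 and 1551 CPM in liver and 142, 157, 70.9 and 155 CPM in heart. The electron carriers of the pathway, ETFA and ETFDH, had log2 fold changes of -1.59 ± 0.15 and -1.26 ± 0.34, and ETFB had -0.30 ± 0.15, which was not called. HADHA, a subunit of the trifunctional protein of long-chain oxidation, averaged 389 ± 133 CPM in heart and 291 ± 71.6 CPM in liver and was not called either.

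Mitochondrial ribosomal proteins, which translate the messages of mitochondrial DNA, differed less. Of 47 members, 45 were called higher in heart than lung, 28 higher in liver than lung and 10 higher in heart than liver, beside 20.7%, 19.4% and 26.4% of all genes. The list of DEGs higher in heart than in lung held 45 of the 47, and that of DEGs higher in liver than in lung held 17. The calls against lung therefore repeat that selection, and nothing is read from their excess. The medians were -1.75, -1.13 and 0.70 in LvsH, LvsLR and HvsLR. Scaling by totals alone made the first 2 medians change sign, to 0.089 and 0.42, and 1 gene was called higher in heart than lung. For 9 members the mean was highest in liver, with MRPS31 at 36.4 ± 4.44 CPM in liver and 19.4 ± 4.00 CPM in heart as an example.

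Several enzymes and carriers were represented by more than one gene. The genes of a family differed in the organ of their highest level, though some were read in several organs. Of the fatty acid binding proteins, FABP1 stood at 672, 720.1, 671 and 574 CPM in liver, at 0.598, 25.6, 2.23 and 0.833 CPM in heart and at 0.266, 0.134, 0.501 and 0.166 CPM in lung. FABP4, the form of fat cells and capillaries, stood at 765, 452, 545 and 656 CPM in heart and at no more than 2.39 CPM elsewhere. FABP5 was read in heart and lung, at 144 ± 36.0 and 69.1 ± 9.78 CPM, and in liver at 5.09 ± 3.38 CPM. Glycogen phosphorylase, which releases glucose from glycogen, was read mainly as PYGB and PYGM in heart, at 481 ± 114 and 85.2 ± 25.6 CPM, and as PYGL in liver, at 807 ± 193 CPM. PYGL also had means of 42.0 CPM in lung and 28.5 CPM in heart, and PYGB of 40.3 CPM in lung and 11.8 CPM in liver. The glycogen synthases parted too, with GYS1 at 110.2 ± 48.3 CPM in heart and 6.05 ± 0.721 CPM in liver, and GYS2 at 0.371 ± 0.605 and 97.1 ± 36.4 CPM. Pyruvate kinase was read as PKM in heart at 861 ± 392 CPM and in lung at 175 ± 16.3 CPM. In liver it was read as PKLR at 83.1 ± 28.3 CPM and also as PKM, at a mean of 41.1 CPM. The insulin-sensitive glucose transporter SLC2A4 averaged 94.1 ± 29.6 CPM in heart, and SLC2A2, the transporter of hepatocytes, averaged 261 ± 74.9 CPM in liver. Phosphofructokinase 2, which sets the signal that speeds glycolysis, was divided among all 3 organs. PFKFB2 was highest in heart at 78.9 ± 45.4 CPM, PFKFB1 in liver at 26.8 ± 10.4 CPM and PFKFB3 in lung at 99.1, 69.5, 104 and 85.0 CPM. CPT1A, the common form of the mitochondrial gatekeeper and a methylation-table gene in neither DEG list, averaged 60.2 ± 21.1 CPM in liver, 35.3 ± 13.6 CPM in lung and 17.5 ± 9.78 CPM in heart. Its lung and liver groups overlapped, and in HvsLR its log2 fold change was -1.75 ± 0.42.

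**Figure D3:**
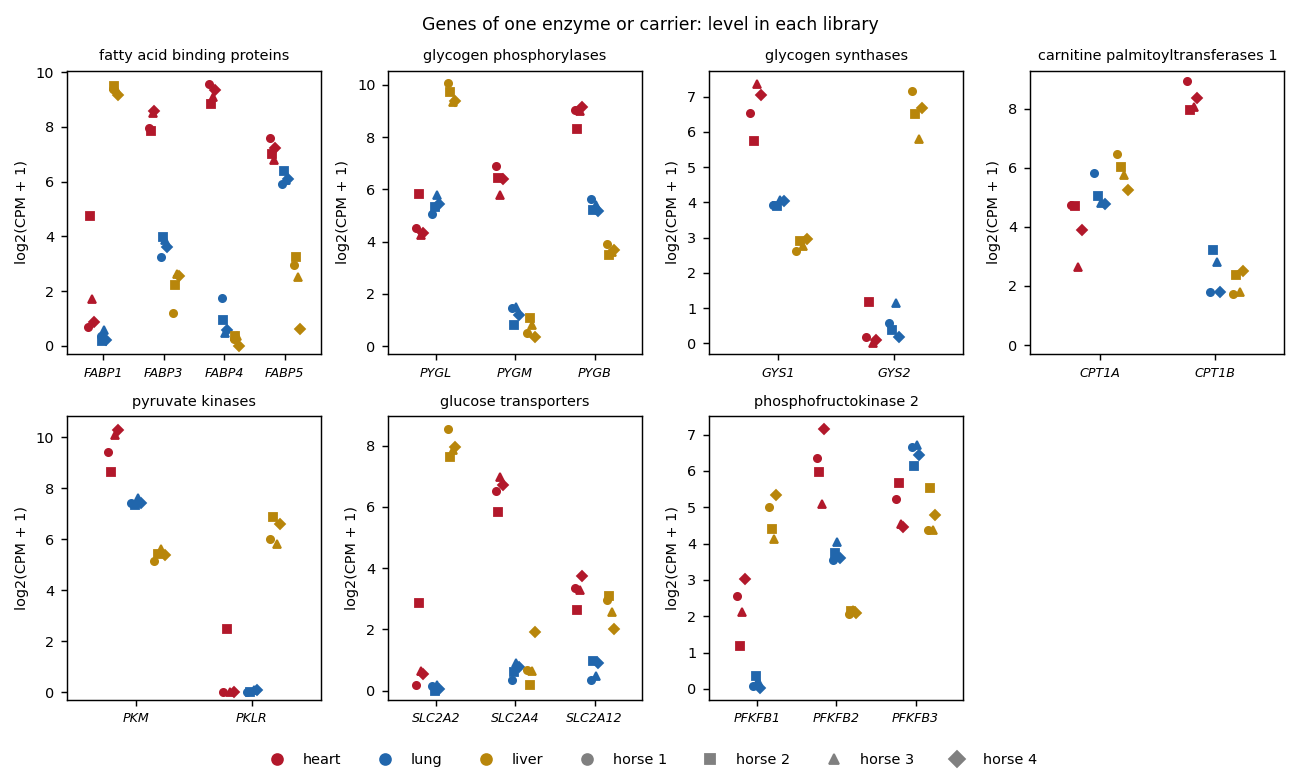
Level, as log2(CPM + 1), of members that encode the same enzyme or carrier, in each library. Colour gives the tissue and symbol shape the horse. In each panel at least 1 gene has its highest points in heart and another in liver, as GYS1 (mean 110.2 CPM in heart) and GYS2 (mean 97.1 CPM in liver), while PFKFB3 is highest in lung.

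Liver members were counted over 8 lists with 143 genes. Nearly all of them stood in the list of DEGs higher in liver than in lung. It held 17 of 18 lipoprotein genes, 18 of 19 of bile acids and drug metabolism, 14 of 15 regulators and all members of the other lists. Liver above lung was thus set by selection, and nothing is read from the excess of high levels in liver. In HvsLR all 143 were called higher in liver, beside 22.0% of all genes, with a median of -6.68, and without heart replicate 2 the number was the same and the median was -9.49. Against lung, 95 of these genes were called higher in heart, 6 higher in lung and 42 in neither direction, and 20.7% and 24.5% of all genes were called higher in heart and in lung. With horse as a replicate block 65 were called higher in heart. Without heart replicate 2 the numbers became 56, 20 and 67, where 19.8% of all genes were called higher in heart. In heart replicate 2 the median gene of these lists stood at 3.34% of its mean liver level, with quartiles of 2.40% and 4.76%. The medians in heart replicates 1, 3 and 4 were 0.0717%, 0.290% and 0.129%, and those in lung libraries lay between 0.0518% and 0.0899%. Heart replicate 2 was the highest heart library for 131 of the genes and more than 5 times the next for 101. The source of these reads was not tested.

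**Figure D4:**
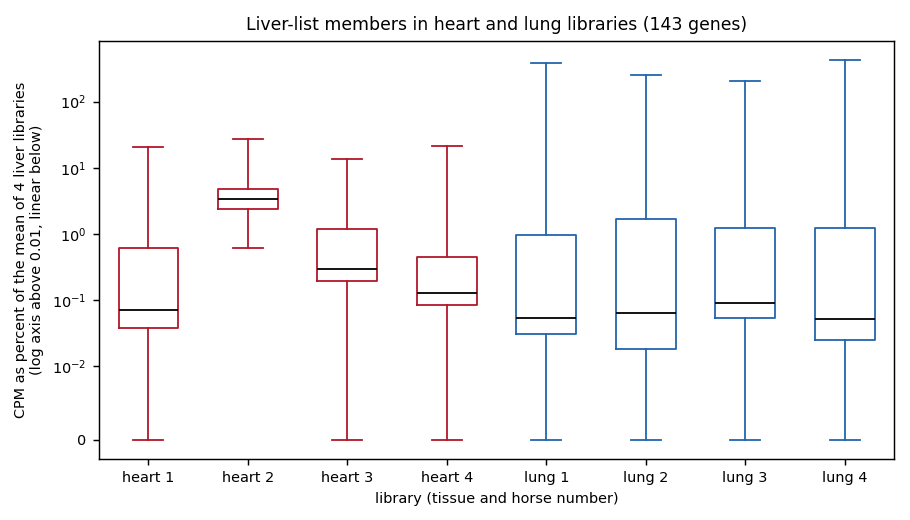
Level of 143 liver-list members in each heart and lung library, as percent of their mean in the 4 liver libraries. Boxes give the quartiles, the line the median and whiskers the lowest and highest gene; the axis is logarithmic above 0.01 and linear below. The box of heart replicate 2, with a median of 3.34%, lies above the boxes of all other libraries.

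Among carrier proteins of plasma, ALB stood at 132855, 78421, 89058 and 76933 CPM in liver replicates 1 to 4, at 48.5, 2555, 163 and 86.1 CPM in heart and at 33.6, 17.3, 42.5 and 22.5 CPM in lung. Transferrin (TF), the iron carrier, averaged 24559.7 ± 7204 CPM in liver, transthyretin (TTR), a carrier of thyroid hormone, 6768 ± 606 CPM, and the histidine-rich glycoprotein HRG 22209 ± 3376 CPM. IGFBP1, which binds insulin-like growth factors, varied more, with 99.0, 253, 31.1 and 43.7 CPM in liver. CP (ceruloplasmin), the copper carrier, was the member of the list with the highest level in lung, at 99.4, 94.3, 97.4 and 70.4 CPM, and its heart libraries held 3.92, 113, 14.0 and 8.10 CPM, so that lung and heart overlapped through replicate 2 alone. Of the 24 carrier proteins, every liver library was above all others for 24.

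Of the 18 members of the lipoprotein list, 17 had every liver library above all others. APOB, the protein of low-density lipoprotein, averaged 8822 ± 1409.7 CPM in liver and 3.49 ± 0.738 CPM in lung, and APOA1 of high-density lipoprotein averaged 2419 ± 564 and 1.32 ± 0.257 CPM. APOE, which macrophages also make, was less restricted, with 10892, 15222, 10913 and 7664 CPM in liver, 658, 770.0, 366 and 726 CPM in lung and 141, 739, 373 and 257 CPM in heart.

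Coagulation factors were high in liver for all 18 members. Prothrombin (F2) averaged 5731 ± 897 CPM in liver and 2.33 ± 0.989 CPM in lung, factor IX (F9) 736 ± 209.5 and 0.163 ± 0.0552 CPM, and antithrombin (SERPINC1) 7446 ± 1203 and 2.57 ± 1.09 CPM. F13B, the carrier subunit of factor XIII, had no count in lung, which put liver at least 4197-fold higher. PROS1 (protein S), an anticoagulant that endothelium also makes, was the least restricted, at 461 ± 82.1 CPM in liver, 47.0 ± 6.56 CPM in lung and 41.9 ± 5.59 CPM in heart. Some complement genes were also read outside liver. C1R and C1S, the proteases of the first complement step, averaged 80.3 ± 39.6 and 54.1 ± 18.9 CPM in lung against 6231 ± 928 and 4642 ± 587 CPM in liver, and the inhibitor SERPING1 187 ± 48.8 against 5922 ± 1226 CPM. C9, which forms the membrane pore, stood at 1801 ± 248 CPM in liver and 0.273 ± 0.188 CPM in lung. CRP, the acute-phase protein, split the liver libraries, with 2686, 215, 1329 and 193 CPM, and replicates 1 and 3 were above replicates 2 and 4.

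Of the enzymes that dispose of amino acids, CPS1, the first step of the urea cycle, stood at 278, 79.0, 255 and 233 CPM in liver, where replicate 2 was the lowest. OTC, the second step, averaged 514 ± 105 CPM in liver and 3.20 ± 0.797 CPM in lung, and ASS1, the next step, which other tissues use to remake arginine, averaged 1157 ± 193 and 25.1 ± 13.1 CPM. ARG1, which releases urea, averaged 399.8 ± 68.6 and 0.147 ± 0.113 CPM. TAT, which breaks tyrosine down, averaged 539.7 ± 216 CPM in liver. KMO of the kynurenine pathway was the 1 gene of the list called higher in lung than heart, at 6.03 ± 1.50 CPM in lung and 1.25 ± 0.671 CPM in heart. All 24 members of the list had every liver library above all others.

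In bile acid and drug metabolism, CYP2E1, an oxidase of ethanol and other small molecules, stood at 9472, 8220.0, 9000.5 and 6710.4 CPM in liver and 4.18, 242, 26.8 and 8.71 CPM in heart. ABCB11, the bile salt export pump, averaged 237 ± 107 CPM in liver, and SLC10A1, which takes bile salts up from blood, 399.9 ± 78.9 CPM. FMO1, a flavin oxidase of drugs and a member of neither DEG list, went the other way. It stood at 346, 231, 187 and 394 CPM in lung, 91.9, 86.1, 83.4 and 105 CPM in liver and 15.9, 24.8, 3.63 and 19.7 CPM in heart, and the 3 groups did not overlap. Genes of the CYP2C, CYP2D and CYP3A families have near copies that share reads, so their levels are uncertain.

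Among transcription factors of the liver, HNF4A, a nuclear receptor that maintains hepatocyte genes, stood at 585, 506, 559 and 618 CPM in liver, and at 0.730, 14.7, 0.279 and 0.757 CPM in heart. The nuclear receptors NR1I2 and NR1I3, sensors of foreign compounds, averaged 94.4 ± 10.8 and 169.8 ± 67.5 CPM in liver. CEBPA and FOXA1 were shared with lung, CEBPA at 155 ± 42.4 CPM in liver and 21.7 ± 4.70 CPM in lung, and FOXA1 at 18.1, 16.4, 21.7 and 22.1 CPM in liver and 9.58, 22.1, 9.69 and 13.6 CPM in lung, where these groups overlapped. FOXA1, a methylation-table gene in neither DEG list, had 11 reads over the heart libraries, all in replicate 2. Enzymes of glucose release were high in liver for all 12 members. PCK1, which starts glucose synthesis, stood at 1942, 1469.7, 438 and 431 CPM in liver, with replicates 1 and 2 above the others, and G6PC1, which frees glucose, at 272, 216, 185 and 137 CPM. FBP1 was also read in lung, at 11 ± 1.14 CPM against 540.1 ± 180.2 CPM in liver.

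Lung was represented mainly by members from the methylation table. Of 20 genes of motile cilia, the beating hairs that clear mucus, 18 were called higher in lung than heart and 17 higher in lung than liver. These counts stand beside 24.5% and 31.1% of all genes. The list medians were 4.80 in LvsH and 4.86 in LvsLR, the latter 4.25 without lung replicate 2. Of the 20, 17 stood in the methylation table and none in a DEG list at hand. The others, such as TTC12, came from lists that combined methylation and expression and so used the read counts. AK7 stood in such a list too. DNAH9, a motor protein of ciliary arms, stood at 21.6, 55.5, 22.8 and 32.7 CPM in lung and gave 5 reads over the heart and 2 over the liver libraries. ARMC3 stood at 5.43, 15.8, 4.05 and 8.74 CPM in lung and had no count in heart or liver, which put lung at least 110.5-fold and 104-fold higher. Lung replicate 2 was the highest for both, and also in the summed level of 6 ciliated-cell markers, which was 93.8, 270.5, 84.0 and 136 CPM in lung replicates 1 to 4. CFAP43, a ciliary protein, departed from the list in liver, with 40.2, 46.6, 0.283 and 1.37 CPM there and 13, 44.8, 12.5 and 17.5 CPM in lung, so that 2 liver libraries lay near the highest lung library and 2 were near 0. DNAAF5, which assembles ciliary motors, did not pass the call in any contrast, with means of 13.3 ± 1.81, 12.3 ± 3.37 and 10.5 ± 0.893 CPM in heart, lung and liver.

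Among epithelial members, CYP2F1, an oxidase of airway secretory cells, stood at 325, 819, 164 and 346 CPM in lung, with 5.30, 9.28, 9.35 and 18.0 CPM in liver and 0.199, 1.51, 1.95 and 0.303 CPM in heart. TMPRSS2, a surface protease of airway cells, stood at 30.8, 39.4, 38.0 and 30.9 CPM in lung with 1 read over the heart and 6 over the liver libraries. SCNN1B, a subunit of the sodium channel that keeps airway surface liquid thin, averaged 23.7 ± 5.26 CPM in lung and 1.57 ± 0.421 CPM in liver. ELF5, an epithelial factor, averaged 7.89 ± 2.71 CPM in lung and 10.8 ± 2.33 CPM in liver, where the groups overlapped. MUC15, a membrane mucin, was highest in heart instead, at 15.1, 11.7, 11.2 and 14.6 CPM, against 3.35, 2.27, 1.48 and 2.01 CPM in lung and no count in liver.

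The members of the list named for lung mesenchyme were mostly read in heart, as 8 of its 10 members had their highest mean in heart. Of the 10, 6 stood in the list of DEGs higher in heart than in lung, so nothing is read from this for lung mesenchyme at large. Under totals alone, 4 were called higher in heart than lung, beside 879 of all 15436 genes. Under TMM the number was 8, beside 20.7% of all genes. The 8 genes were developmental factors and a ligand, FOXL1, FGF10, MEOX1, TCF15, PRRX1, PRRX2, TBX18 and GLI2, with heart means between 2.40 ± 0.817 CPM for PRRX2 and 31.2 ± 4.78 CPM for TCF15. FOXF1, the factor of lung mesenchyme and capillaries, stood at 45.1, 30.3, 44.6 and 38.1 CPM in lung and at most at 4.50 CPM elsewhere. SHH, the ligand that airway epithelium sends to mesenchyme, stood at 3.19, 5.44, 3.38 and 4.74 CPM in lung with no count in heart, at least 56.9-fold higher.

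Markers of endothelium were read in heart and lung. Of 12 members, 10 were called higher in lung than liver, and in LvsH 2 were higher in lung and 5 in heart. The list of DEGs higher in heart than in lung held 5 of the 12, so the heart calls partly repeat that selection. Of all genes, 31.1% were called higher in lung in LvsLR, and 24.5% in lung and 20.7% in heart in LvsH. PECAM1, an adhesion protein of endothelial junctions, stood at 762, 340.2, 479.8 and 710.1 CPM in lung, 453, 391, 355 and 429 CPM in heart and 51.9, 48.5, 72.1 and 56.5 CPM in liver, and lung and heart overlapped. EPAS1 stood at 1521, 1060.5, 1463 and 1902 CPM in lung, with means of 348 ± 87.7 CPM in heart and 428 ± 99.1 CPM in liver. ACVRL1, a receptor for bone morphogenetic proteins on capillaries, averaged 201 ± 27.4 CPM in lung and 50.4 ± 17.2 CPM in heart. FLT1, a receptor for vascular endothelial growth factor, was higher in heart, at 290.2 ± 18.2 CPM against 42.0 ± 16.4 CPM in lung. The list median in LvsH was -0.23 under TMM and 1.60 with library totals alone, where 7 genes were called higher in lung and 0 in heart, and in LvsLR it was 2.49. With library totals alone, 11259 of all 15436 genes were called higher in lung and 879 in heart in LvsH.

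The leukocyte list was called higher in lung than in heart for 14 of 19 tested genes and higher in lung than in liver for 16, beside 24.5% and 31.1% of all genes. Of its 20 members, 14 stood in the methylation table, and the others came from lists that used the read counts. MARCO stood at 1117, 542, 1921 and 1182 CPM in lung, 65.1, 128, 365 and 148 CPM in liver and 1.46, 19.1, 4.47 and 2.88 CPM in heart. SYK, a kinase of immune receptors, averaged 60.5 ± 16.2 CPM in lung and 2.35 ± 1.48 CPM in heart. CD52, a surface glycoprotein of lymphocytes, was highest in heart, at 12.1, 14.0, 6.70 and 15.4 CPM, with 1.38, 1.84, 1.78 and 1.23 CPM in lung. Among smooth muscle members, SMTN (smoothelin) averaged 414 ± 69.8 CPM in heart and 14.6 ± 1.44 CPM in lung, RGS5, known from pericytes, 136 ± 40.8 and 1.91 ± 0.983 CPM, and PDE5A, which breaks down cyclic GMP, was higher in lung, at 12.4 ± 4.32 against 4.09 ± 1.71 CPM. Of the 9 smooth muscle members, 5 stood in the list of DEGs higher in heart than in lung.

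The methylation table was made from DNA, so the calls of its genes were not used in its making. Of its 1125 members, 589 stood in no list at hand that used counts, and the lists at hand were shortened. Of 979 methylation-table genes tested, 500 were called in LvsH, which is 51.1%, beside 45.2% of all genes. In LvsLR 550 were called (56.2%, beside 50.4%), and in HvsLR 550 (56.2%, beside 48.4%). The shares called higher in lung were 31.2% in LvsH and 41.8% in LvsLR, beside 24.5% and 31.1% of all genes. The shares called lower in lung were 19.9% and 14.4%, beside 20.7% and 19.4%. With library totals alone, 738 methylation-table genes were called higher in lung and 63 lower in LvsH, and 748 and 53 in LvsLR. The same counts over all 15436 genes were 11259 and 879 in LvsH and 10782 and 1151 in LvsLR. Plain totals moved both sets up in lung. In LvsH the median log2 fold change of methylation-table genes was 0.32, beside 0.030 for all genes, under TMM. With totals alone it was 2.13, beside 1.85. In LvsLR the medians were 0.65, beside 0.26, under TMM and 2.20, beside 1.81, with totals alone. Whether the shares of methylation-table genes differ from those of other genes was not tested.

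Individual methylation-table genes gave large differences. TMPRSS2, CYP2F1, CCR3 and WWC1 were in neither DEG list but also stood in a list that combined methylation and expression, and they are named here for the size of their differences, without p-values. The 6 liver reads of TMPRSS2 were all in liver replicate 2, so that the other liver libraries held none, and no fold change is given. For CYP2F1 the log2 fold change was 9.02 ± 0.85 (SE) in LvsH, and 9.67 without heart replicate 2. CCR3, a chemokine receptor of eosinophils, stood at 36.0, 34.3, 92.9 and 43.8 CPM in lung, 6.40, 11.3, 24.1 and 9.56 CPM in liver and 0.0664, 0.812, 0 and 0.151 CPM in heart, and the 3 groups did not overlap. Its log2 fold change was 7.64 ± 0.73 in LvsH, and 9.01 without heart replicate 2. WWC1 (KIBRA), a scaffold of the Hippo pathway, stood at 63.7, 91.1, 70.2 and 40.4 CPM in liver, 50.0, 66.2, 43.4 and 46.1 CPM in lung and 0.0664, 1.28, 0.559 and 0 CPM in heart. Its log2 fold change was -7.46 ± 0.64 in HvsLR, and -9.32 without heart replicate 2. Its lung and liver groups overlapped. NDNF, a secreted factor first known from neurons, stood at 35.3, 44.8, 27.6 and 56.1 CPM in lung, 15.2, 11.7, 15.4 and 9.09 CPM in heart and 0, 0.0731, 0.0945 and 0 CPM in liver. PIP5K1B, a kinase that makes a membrane phosphoinositide, stood at 46.4, 20.3, 59.8 and 69.8 CPM in heart, 28.4, 29.1, 28.9 and 19.7 CPM in lung and 0.0999, 0.0731, 0 and 0 CPM in liver. Both were near 0 in liver, with 2 reads each over its libraries. Some of the heart and liver genes already described were methylation-table genes as well, among them ACTC1 and TNNI3 for heart and F2 and CP for liver, but these also stood in a DEG list. Others of that kind were LECT2, a protein secreted by hepatocytes, at 1665, 1447, 776 and 882 CPM in liver and 0.730, 35.0, 1.12 and 0.909 CPM in heart, and SLC6A11, a transporter of the transmitter GABA, at 160.1, 84.7, 120.2 and 145 CPM in liver and 0, 2.20, 0 and 0.151 CPM in heart.

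Genes listed for a link between promoter methylation and expression numbered 58, and 32 had a mean of at least 20 CPM in an organ. FABP4, TSPAN8 and ERRFI1 were among them. Of the 32, the highest mean was in heart for 11, in lung for 9 and in liver for 12. METTL7B, a methyltransferase of lipid droplets, stood at 1522, 1238, 1095 and 1475 CPM in liver and 1.49, 1.44, 2.07 and 1.23 CPM in lung. PPP1R1A, an inhibitor of protein phosphatase 1, was shared by liver and heart, at 260.0, 322, 310.0 and 265 CPM in liver and 45.4, 77.9, 69.3 and 71.4 CPM in heart, with 0.213, 0.134, 0.146 and 0.0711 CPM in lung. SLC39A8, a carrier of zinc and manganese, stood at 88.7, 116, 89.6 and 89.1 CPM in lung, 56.4, 25.8, 34.8 and 38.5 CPM in liver and 5.25, 5.91, 3.35 and 8.86 CPM in heart, without overlap. The antioxidant enzyme SOD1 was read in all organs, at 1095 ± 279.6 CPM in liver, 239 ± 55.7 CPM in lung and 161 ± 24.0 CPM in heart. COMMD4, MRPL15, MTCH1 and RPL38 were called in no contrast here, whereas the paper listed COMMD4, MRPL15 and MTCH1 among its DEGs. For COMMD4 every heart library was above every lung library. Its log2 fold change of -0.64 ± 0.14 (SE) in LvsH fell short of the threshold.

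Differences between animals had not been a criterion for naming the members. The DEG lists, though, set differences between organs against the spread between animals, so genes that vary between animals were less likely to be listed. Nothing is therefore read from the share of members called. In a model of tissue and horse, edgeR's quasi-likelihood F test called 15 members at an adjusted p below 0.05, which is 0.421% of those tested, beside 1.06% of all genes. 10 of the called members were methylation-table genes, which is 1.02% of the 979 tested. The 3 organs of an animal served as its replicates. Horse 2 was the highest in every organ for 11 of the called members and the lowest in every organ for 2.

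The members with the smallest p included genes that are known to be induced by interferon. IFIT3, an antiviral protein of the IFIT family, stood at 55.8, 487, 171 and 79.4 CPM in heart replicates 1 to 4, 42.6, 472, 225 and 145 CPM in lung and 12.9, 392, 127 and 62.3 CPM in liver, with an adjusted p of 0.00214. Horse 2 was the highest and horse 1 the lowest in each organ, and horse 3 came next to horse 2. IFIH1 (MDA5), a sensor of viral double-stranded RNA, stood at 20.9, 161, 31.8 and 18.9 CPM in heart, 29.9, 305, 120.3 and 67.2 CPM in lung and 44.6, 283, 148 and 92.0 CPM in liver, with an adjusted p of 0.00222. ISG20, a nuclease that attacks viral RNA, stood at 0.398, 11.5, 1.68 and 1.82 CPM in heart, 1.65, 30.5, 9.80 and 8.55 CPM in lung and 1.40, 14.7, 7.56 and 1.91 CPM in liver, with an adjusted p of 0.00222. PARP14, an ADP-ribosyltransferase of immune cells, gave 43.9, 240.0, 58.4 and 53.4 CPM in heart, 73.2, 277, 184 and 136 CPM in lung and 40.7, 388, 175 and 113 CPM in liver, with an adjusted p of 0.00974. All of these had horse 2 on top in every organ. CIITA, the master switch of class II histocompatibility genes, gave 22.5, 90.9, 48.3 and 28.9 CPM in heart, 37.0, 99.0, 63.1 and 51.5 CPM in lung and 2.00, 4.75, 2.74 and 3.82 CPM in liver, with an adjusted p of 0.019. UNC93B1, which carries nucleic-acid sensors to endosomes, gave 18.4, 51.4, 32.7 and 16.0 CPM in heart, 58.9, 111, 93.1 and 70.8 CPM in lung and 23.2, 60.6, 42.0 and 30.3 CPM in liver, with an adjusted p of 0.0208. SMTNL1, a protein known from muscle, was highest in horse 2 and lowest in horse 1 in every organ, at 5.38, 55.2, 9.77 and 5.91 CPM in heart, 2.45, 33.8, 9.80 and 5.09 CPM in lung and 0.500, 42.0, 5.29 and 8.19 CPM in liver, with an adjusted p of 0.00655.

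The remaining named genes of this comparison differed in other ways. COL15A1, a collagen of basement membranes, was highest in horse 1 in every organ, at 284, 194, 92.2 and 148 CPM in heart, 29.9, 20.7, 8.86 and 8.74 CPM in lung and 1.80, 1.68, 0.472 and 1.09 CPM in liver, with an adjusted p of 0.012. PARVB, an adaptor of cell adhesion sites, was lowest in horse 2, at 97.1, 50.5, 116 and 135 CPM in heart, 13.9, 5.78, 16.9 and 11.8 CPM in lung and 8.20, 2.48, 8.41 and 7.37 CPM in liver, with an adjusted p of 0.0152. MT-ND4, a complex I subunit encoded in mitochondrial DNA, was highest in horse 1 and lowest in horse 2 in every organ, at 25678, 5881, 17839 and 20369.9 CPM in heart, 367, 62.1, 128 and 125 CPM in lung and 2316, 391, 891 and 843 CPM in liver, with an adjusted p of 0.0154. Horse 1 exceeded horse 2 by 4.37-fold in heart, 5.91-fold in lung and 5.92-fold in liver. The other called members, chosen for mention after their values were seen, were LGALS4, ATP6V1C2, TTC12, AGRN and TCIRG1, with adjusted p between 0.0244 and 0.0492. Without heart replicate 2 the test called 23 members and with DESeq2 80, so the number depended on both.

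**Figure D5:**
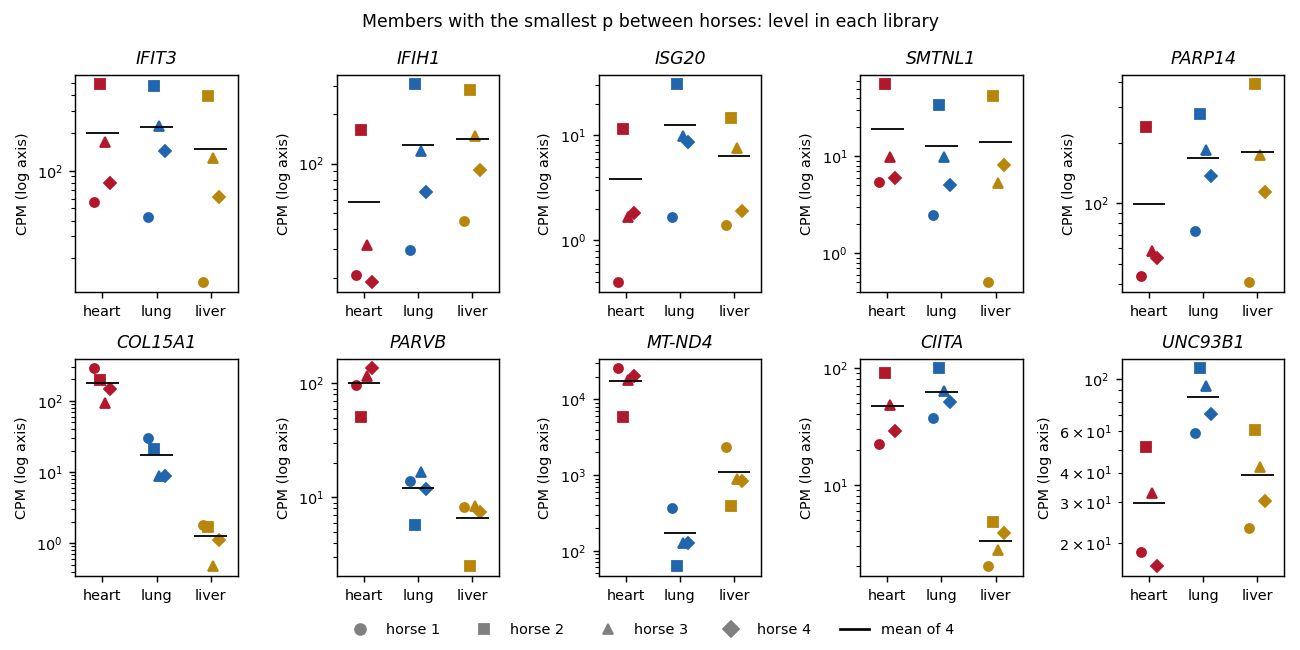
Level in CPM on a log axis of the 10 members with the smallest p between horses, in heart, lung and liver. Symbol shape gives the horse and the line is the mean of 4. The square symbols, which stand for horse 2, are on top in every organ for IFIT3, IFIH1, ISG20, SMTNL1, PARP14, CIITA and UNC93B1 and at the bottom for PARVB and MT-ND4.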

How the data were processed

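RNA-seq of heart, lung and liver was analysed in 12 libraries. The authors deposited counts of reads per gene, 1 table per library, made from poly-A libraries of a TruSeq kit that does not keep strand, so reads of overlapping and antisense genes cannot be told apart. The submitters' processing notes name FastQC, TopHat2, HTSeq and EquCab3.0, without versions, and DESeq2 for the comparisons. Rows outside genes, 26.8% to 37.9% of each table, were left out of library sizes. Here, members were found by matching printed identifiers to the count rows. The members and gene lists were chosen with earlier results of these data known. Symbols that were missing or damaged were not used, which left out 915 and 9 identifiers, and 5 were not rows of the count tables.

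Counts were filtered with filterByExpr, scaled by TMM and tested with edgeR 4.0.16 in R 4.3.3 (glmQLFit, robust, and glmQLFTest) in 1 model of tissue over all 15436 genes kept, with Benjamini-Hochberg adjustment. Differences between animals were tested by an F test with tissue and horse as terms. A fold against a group without counts was computed against 3 counts over that group, a limit that covers counting error only. Genes named were any member of a list of 25 or fewer, the 5 highest of longer lists and those highest in another organ, the 5 methylation-table genes with the largest difference in each direction and contrast that had 20 CPM or more and no overlap, the 10 with the smallest p between horses, the 5 with the largest share of counts per organ, and promoter-list genes. Some of these genes are not reported here, and the counts of their lists include them. The test was tested on simulated data. Replicates came from separate animals, and the same number is the same animal in every organ. Deviations from the organ mean had a correlation between 0.0867 and 0.372 for the 12 pairs of libraries of the same horse, and between -0.249 and 0.128 for the 36 pairs of different horses. Alternatives were RLE factors, library totals alone, no filter, DESeq2 1.42.0 (a Wald test, or a likelihood-ratio test between horses), horse as a block and leaving out each library.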

Additional observations from a re-analysis of the deposited data

Results flagged for a closer look

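For each group of 4 libraries whose values are given above, and for the summed level of each list, the gap between the most extreme library and its neighbour was set against the range of the group by Dixon's test. Of 239 groups, 35 were past the 95% critical value, of which 23 were a high value in heart replicate 2. Chance marks about 1 in 20 independent groups, but these groups are not independent. List sums contain genes that were also tested singly, and some genes were named for differences between horses.

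In heart replicate 2 the summed levels stood out for 8 lists. They were 7347 CPM for plasma carrier proteins, 2391 CPM for lipoproteins, 2417 CPM for coagulation, 460.4 CPM for urea cycle and amino acids, 775 CPM for bile acids and drug metabolism, 73.7 CPM for liver regulators, 291 CPM for glucose output and liver glycogen, and 402 CPM for leukocytes. Single liver genes stood out in the same library, with A1BG at 180.3 CPM, ALB at 2555 CPM, CP at 113 CPM, CYP2E1 at 242 CPM, FABP1 at 25.6 CPM, HNF4A at 14.7 CPM, LECT2 at 35.0 CPM and SLC6A11 at 2.20 CPM. ERRFI1 at 13.4 CPM and the macrophage receptor MARCO at 19.1 CPM did so too. The troponin gene TNNT1, which is not a liver gene, reached 346 CPM there. The genes called between horses were high in heart replicate 2 as in the other organs of horse 2, with IFIH1 at 161 CPM, ISG20 at 11.5 CPM, PARP14 at 240.0 CPM and SMTNL1 at 55.2 CPM. Which of these rest on the library and which on the animal was not tested beyond the count without the library given above.

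Elsewhere the values were scattered. In heart, RYR2 was high in replicate 4 at 756 CPM and ACSL1 low in replicate 3 at 70.9 CPM. In lung replicate 1 the list of fatty acid oxidation summed to 1080.3 CPM, TNNT2 stood at 6.01 CPM and IDH3A at 39.0 CPM, all high. In lung replicate 2 the ciliary gene CFAP43 was high at 44.8 CPM and SLC39A8 at 116 CPM, in lung replicate 3 CCR3 was high at 92.9 CPM, and in lung replicate 4 PIP5K1B was low at 19.7 CPM. In liver, BMP10 was high in replicate 2 at 6.72 CPM, and replicate 4 was low for the lists of calcium handling at 156 CPM and of citrate cycle and pyruvate at 1530.1 CPM.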

How the results depend on the processing

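The numbers of members called in the 3 contrasts stayed within 1.5 times of those given under all alternatives, as did those of methylation-table genes except in LvsH with library totals alone, where 801 were called. Leaving out each library in turn gave 2465 to 2532 members in LvsH, 2367 to 2454 in LvsLR and 2430 to 2496 in HvsLR. With horse as a replicate block, 2445, 2400 and 2449 members were called, and the block changed the call of none of the named genes whose fold change is given. Between horses, DESeq2 called 80 members and the fit without heart replicate 2 called 23, against 15. The number of liver-list members called higher in heart than in lung, an alternative series added after the data were seen, was 95 as given, 65 with horse as a replicate block, 55 with library totals alone and 56 to 105 with each library left out, lowest without heart replicate 2. With library totals alone the median log2 fold change changed sign for the mitochondrial ribosome, to 0.089 in LvsH and 0.42 in LvsLR, and for endothelium, to 1.60 in LvsH, because this scaling moves all genes up in lung. Medians of lists that are near 0 in liver moved with single libraries, for calcium handling to 9.21 without liver replicate 2 and for cardiac membrane genes to 8.83 without liver replicate 3. Calls at the edge of the fold threshold were lost for ACADM without heart replicate 2 (-0.91 in HvsLR), for ACAA2 without liver replicate 1, heart replicate 3 or heart replicate 4 (-0.95 to -0.99), for ETFDH without liver replicate 1 (-0.87), and for ERRFI1 in LvsLR with library totals alone (-0.77). Liver replicate 4, with 4345694 gene counts, was the shallowest library and limits what can be said of genes near 0 there, and 4 animals limit the contrast between horses.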
